A study of Homo sapiens with 3 samples.

Results

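The laminin chains are the secreted polypeptides from which laminins, the large glycoproteins of basement membranes, are assembled. The 9 genes described here were taken by symbol from a fixed list of alpha, beta and gamma chain genes, and not by their level. They are 9 of 58051 genes that were listed, with or without reads, for each of 3 RNA-seq libraries. At least 1 read lay on 29044, 29672 and 28828 of the listed genes in the 3 libraries. All 9 laminin identifiers matched GENCODE release 44. The libraries come from 3 replicates of H9, an established human embryonic stem cell line, of wild-type genotype and without treatment. The cells grew in Essential 8 Flex medium on plates coated with vitronectin, an adhesive plasma protein. The study used these libraries to grade human genes by expression. There was 1 condition, so nothing was compared between groups. Nothing states that the replicates were separate cultures, and their spread may be technical. A total of 10390984, 12024802 and 8655155 reads lay on genes in replicates 1, 2 and 3, and the 9 laminin genes held between 0.0831% and 0.0858% of them. The pluripotency markers POU5F1, NANOG, SOX2, LIN28A and DNMT3B were all in the class of high expression, with summed levels of 5215 to 5265 TPM, a unit explained with the levels.

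Each laminin is a heterotrimer of 1 alpha, 1 beta and 1 gamma chain joined along a coiled coil. The free end of the alpha chain binds integrins and dystroglycan on the cell surface, and the short arms of the chains link laminins into a sheet. Laminins are among the first matrix proteins that an embryo makes, and laminins with the alpha chain of LAMA5 are a common coat for the culture of pluripotent cells. Trimers form inside the cell, so the transcripts of the 3 chain classes are described side by side. RNA levels do not show which trimers were assembled or secreted.

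Levels are in TPM, the reads of a gene divided by its exon length and scaled so that each library has the same sum. Exon length was the union of all annotated exons of a gene. Where another length, that of the 1 transcript that Ensembl names canonical, moved the level of a laminin chain gene by more than 1.5 times, both values are given. On average, 5 of the 9 genes were above 20 TPM and 4 were below 2 TPM. The gap lay between LAMA5 and LAMA4, whose means differed 15.7-fold. With canonical lengths the gap lay between LAMA5 and LAMA2, whose means differed 8.69-fold.

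Of the alpha chains, LAMA1 and LAMA5 held nearly all of the message. LAMA1 (ENSG00000101680, chromosome 18, 6941742 to 7117797, minus strand) encodes the alpha chain of the early embryo. It had 54.4, 50.5 and 48.2 TPM in replicates 1, 2 and 3, a mean of 51.0 ± 3.14 TPM (SD, n = 3), from 2245, 2425 and 1695 reads. LAMA5 (ENSG00000130702, chromosome 20, 62307955 to 62367312, minus strand) encodes the alpha chain of many epithelial basement membranes. It had 19.9, 18.8 and 27.6 TPM, a mean of 22.1 ± 4.79 TPM (SD, n = 3). LAMA1 was above LAMA5 in every replicate, and their ranges did not overlap. LAMA1 was 2.74, 2.70 and 1.75 times LAMA5, so that the ratio was lowest in replicate 3, where LAMA5 was highest. LAMA1 held 67.2 ± 5.41% of the summed alpha chain TPM and LAMA5 28.9 ± 5.20% (SD, n = 3). Without replicate 3 these shares were 70.3% and 25.9%.

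The other 3 alpha chain genes together contributed little. For these, expression in few cells and little RNA per cell cannot be told apart in bulk RNA. LAMA4 (ENSG00000112769, chromosome 6, 112107931 to 112254939, minus strand), whose chain is known from the basement membranes of blood vessels, had 1.09, 1.43 and 1.69 TPM, from 34, 52 and 45 reads. LAMA2 (ENSG00000196569, chromosome 6, 128883138 to 129516566, plus strand), whose chain surrounds muscle fibers and peripheral nerves, had 1.12, 1.201 and 1.18 TPM, from 77, 96 and 69 reads. The ranges of LAMA4 and LAMA2 overlapped, and LAMA4 was the higher in 2 of 3 replicates. With the canonical transcript as length, LAMA2 had a mean of 1.92 TPM, 1.64 times its value from the union of exons, and was above LAMA4 in all 3 replicates. LAMA3 (ENSG00000053747, chromosome 18, 23689453 to 23956222, plus strand), whose chain anchors stratified epithelia such as the epidermis, had 0.451, 0.297 and 0.373 TPM, from 17, 13 and 12 reads. LAMA3 lay below both in every replicate. It has a long and a short form from different start sites, which reads summed over the gene do not separate.

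Of the beta chains, LAMB1 and LAMB2 were both expressed and LAMB3 was near the limit of detection. LAMB1 (ENSG00000091136, chromosome 7, 107923799 to 108003213, minus strand) encodes the beta chain of most embryonic laminins. It had 40.2, 39.7 and 36.4 TPM, a mean of 38.8 ± 2.07 TPM (SD, n = 3), from 1946, 2233 and 1502 reads. LAMB2 (ENSG00000172037, chromosome 3, 49121114 to 49133118, minus strand), known from the kidney filter and the neuromuscular junction, had 26.9, 29.4 and 35.6 TPM, a mean of 30.7 ± 4.49 TPM (SD, n = 3). LAMB1 was the higher in each replicate, by 1.49, 1.35 and 1.02 times, and in replicate 3 both were nearly equal. LAMB3 (ENSG00000196878, chromosome 1, 209614870 to 209652425, minus strand), whose chain pairs with that of LAMA3 in the epidermis, had 1 read in each replicate. These 3 reads have an exact Poisson 95% interval of 0.619 to 8.77 reads, or 0.0172 to 0.244 TPM, which covers counting error only. The order of LAMB1 among all members rested on its length. Its 37 annotated transcripts have 18592 bp of exons in all, of which 12942 bp lie beyond the length of the canonical transcript, 5650 bp. With the canonical length, LAMB1 had a mean of 77.0 ± 3.80 TPM (SD, n = 3), 1.99 times the value above, and was 4.08, 3.68 and 2.79 times LAMB2.

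LAMC1 (ENSG00000135862, chromosome 1, 183023420 to 183145592, plus strand) encodes the gamma chain that most laminins share, and it was the most abundant of the 9 genes under both lengths. It had 144.4, 146.6 and 143.3 TPM, a mean of 144.7 ± 1.69 TPM (SD, n = 3), from 3174, 3747 and 2686 reads. These values lay closer together than those of any other member. The coefficient of variation (CV) of the LAMC1 counts, each divided by its library total, was 1.05%, where counting error alone gives 1.78%. With the canonical length the mean was 93.0 ± 0.844 TPM (SD, n = 3), and LAMC1 stayed above every other member in all 3 replicates.

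**Figure D1:**
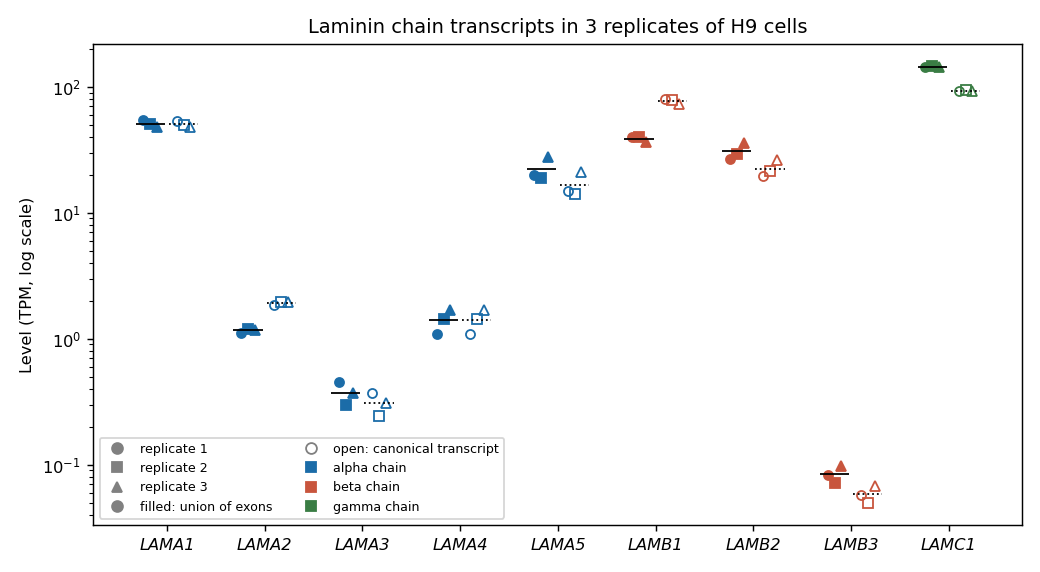
Level of each laminin chain gene in TPM on a log axis, with 1 point per replicate, filled for the union of exons and open for the canonical transcript as gene length, and a solid or dotted line at the mean of each. LAMC1, LAMA1, LAMB1, LAMB2 and LAMA5 lie above 14 TPM in every replicate under both lengths, and the other 4 genes lie below 2 TPM.

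Summed by class, the alpha chains had 76.0 ± 3.45 TPM, the beta chains 69.5 ± 2.48 TPM and the gamma chain LAMC1 144.7 ± 1.69 TPM (SD, n = 3 each). The ratio of alpha to gamma was 0.533, 0.493 and 0.551, and that of beta to gamma 0.466, 0.472 and 0.503. The order of the classes followed the length used. With canonical lengths the alpha chains had 70.9 ± 2.73 TPM, the beta chains 99.3 ± 0.650 TPM and the gamma chain 93.0 ± 0.844 TPM (SD, n = 3 each), and beta to gamma became 1.07 ± 0.00411 (SD, n = 3). The alpha chains remained below the gamma chain in every replicate, with ratios of 0.779, 0.721 and 0.787. Which transcripts the reads came from cannot be told from counts per gene, so neither length is known to be the better.

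**Figure D2:**
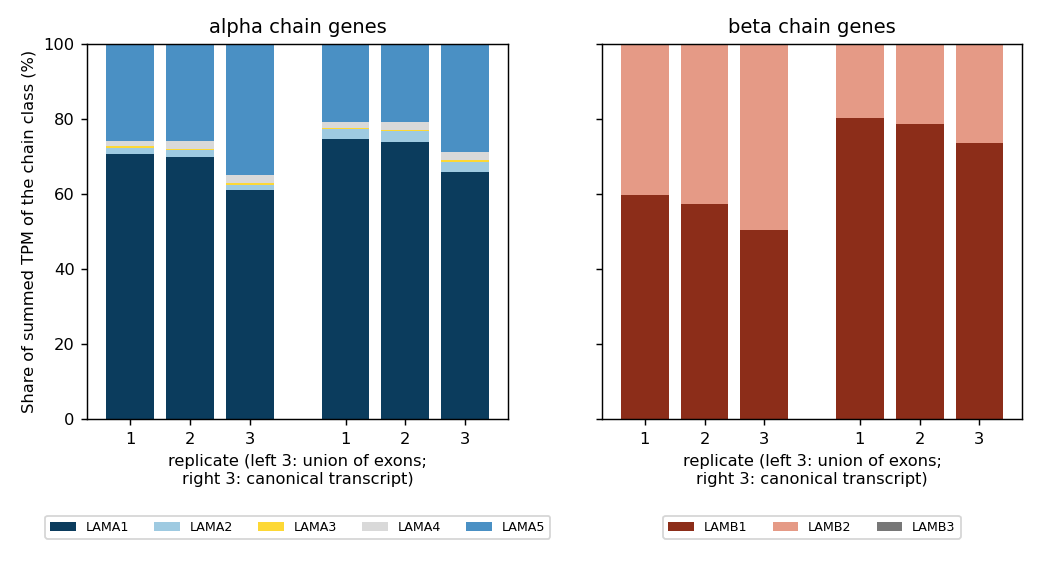
Share of the summed TPM of the alpha chain genes (left) and of the beta chain genes (right) that each gene held, in percent, with 1 stacked bar per replicate for each of both gene lengths. LAMA1 holds between 61.0% and 74.7% of the alpha chain TPM and LAMB1 between 50.5% and 80.3% of the beta chain TPM, with the lowest share in replicate 3 under each length.

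Among 19629 protein-coding genes, the study's rule calls those below 0.01 TPM nonexpressed and divides the others into 3 quantiles. The rule was applied here to TPM computed from the counts, while the study took its abundances from Cufflinks, so its own classes may differ. The boundaries were 3.35 and 26.96 TPM, and 28.8% of protein-coding genes were in each of the 3 expressed classes. LAMC1, LAMA1, LAMB1 and LAMB2 were in the high class, 4 of 9. LAMA5 was in the medium class, and LAMA4, LAMA2, LAMA3 and LAMB3 were in the low class. LAMC1 exceeded 94.9% of protein-coding genes, LAMA1 82.9%, LAMB1 78.0%, LAMB2 73.6% and LAMA5 67.2%. Single replicates of LAMB2 and LAMA5 crossed the upper boundary of 26.96 TPM, as LAMB2 was at 26.92 TPM in replicate 1 and LAMA5 at 27.6 TPM in replicate 3. With canonical lengths LAMB2 had a mean of 22.3 TPM and was in the medium class. LAMC1 then exceeded 91.1% of protein-coding genes, LAMB1 88.9%, LAMA1 83.1%, LAMB2 68.0% and LAMA5 63.0%, so LAMB1 ranked above LAMA1. Neighbors in level were taken only with the union of exons as length. By the level alone, the protein-coding genes nearest to LAMC1 were HSPE1, at 144.6 TPM, and TRIAP1, at 145.4 TPM. SENP2 and CCNK lay next to LAMA1, both at 51.0 TPM, and NCKIPSD and HDAC7 next to LAMB1, both at 38.8 TPM. With 1 condition, likeness of a pattern across conditions could not be measured.

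**Figure D3:**
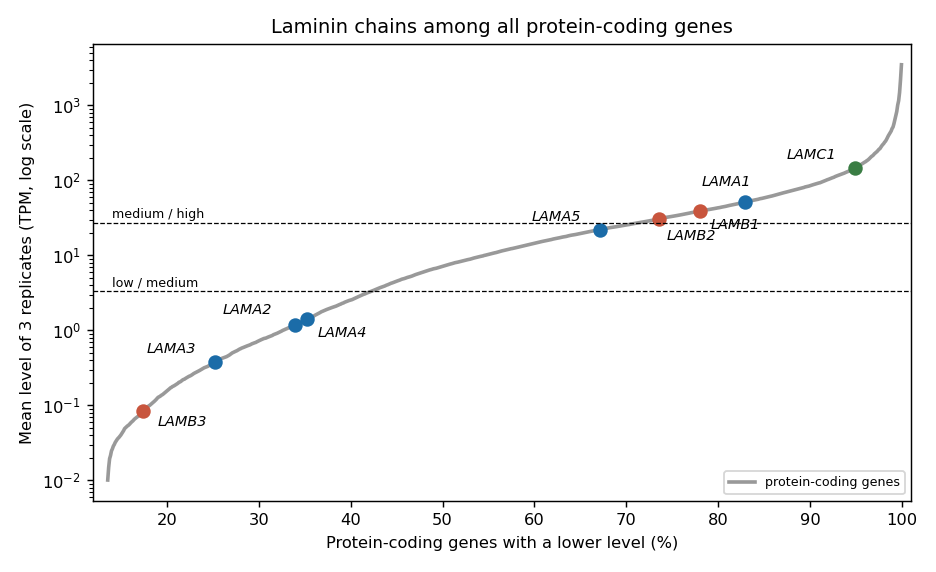
Mean TPM (union of exons, 3 replicates), on a log axis, against the percent of protein-coding genes with a lower level. The grey line is drawn through protein-coding genes of at least 0.01 TPM, taken at regular steps of rank. Dots are the laminin chain genes colored by class (blue alpha, red beta, green gamma). Dashed lines are the class boundaries, which leave 4 laminin genes below 3.35 TPM and 4 above 26.96 TPM.

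Of the 5 genes with a mean above 20 TPM, LAMA5 and LAMB2 varied most between replicates, and both were highest in replicate 3. The CV of the counts, each divided by its library total, was 23.0% for LAMA5 and 16.0% for LAMB2, against 3.55% and 4.32% from counting error. It was 5.09% for LAMA1 and 4.13% for LAMB1. LAMA4, with far fewer reads, had a CV of 22.6%, against 15.3% from counting error. The biological coefficient of variation, which edgeR fits to the spread beyond counting error with information shared across genes, was 0.104 for LAMA5 and 0.0796 for LAMB2, where the median of 15997 genes was 0.0676. LAMA1 had 0.0537, LAMB1 0.0515 and LAMC1 0.0476. Without replicate 3, the value common to all genes went from 0.0607 to 0.0335. The 5 genes then had 0.0307 (LAMA5), 0.0324 (LAMB2), 0.0314 (LAMA1), 0.0311 (LAMB1) and 0.0327 (LAMC1). Without replicate 1 the common value was 0.0680, with 0.0608 for LAMA5 and 0.0643 for LAMB2. Without replicate 2 it was 0.0788, with 0.0898 for LAMA5 and 0.0864 for LAMB2. With 2 replicates, edgeR draws single genes strongly towards the shared values, so closeness among the genes does not show what replicate 3 contributes. Replicate 3 was set against the mean of the other replicates as a log2 ratio, with the standard error (SE) that counting error gives. The ratio was 0.54 ± 0.061 for LAMA5 and 0.37 ± 0.076 for LAMB2. LAMA1 had -0.09 ± 0.041, LAMB1 -0.10 ± 0.043 and LAMC1 0.01 ± 0.033. The same ratio was taken for the 9946 genes that no replicate counted fewer than 100 times. Its median was 0.00, and 98.9% of them had a lower ratio than LAMA5.

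These ratios went with base composition. The exons of LAMA5 are 65.7% G or C and those of LAMB2 59.3%, against 48.5% in LAMA1, 48.2% in LAMC1 and 43.2% in LAMB1. Genes within 2 percentage points of the exon GC content of LAMA5 had a median log2 ratio of 0.32 in replicate 3 (5th to 95th percentile 0.02 to 0.61, 290 genes). Those near LAMB2 had a median of 0.14 (5th to 95th percentile -0.09 to 0.45, 1040 genes). LAMA5 and LAMB2 were thus within the range of genes of like composition, above its median. After subtraction of the median ratio in each of 20 bins of exon GC content, LAMA5 had 0.24 and LAMB2 0.23. Of the 9946 genes so corrected, 93.2% had a lower ratio than LAMA5 and 92.8% a lower one than LAMB2. LAMA4 had 0.47 ± 0.268 in replicate 3, from 45 reads, and its exons are 43.4% G or C. LAMA2, LAMA3 and LAMB3 had ratios within 1 SE of 0. What sets replicate 3 apart was not tested.

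**Figure D4:**
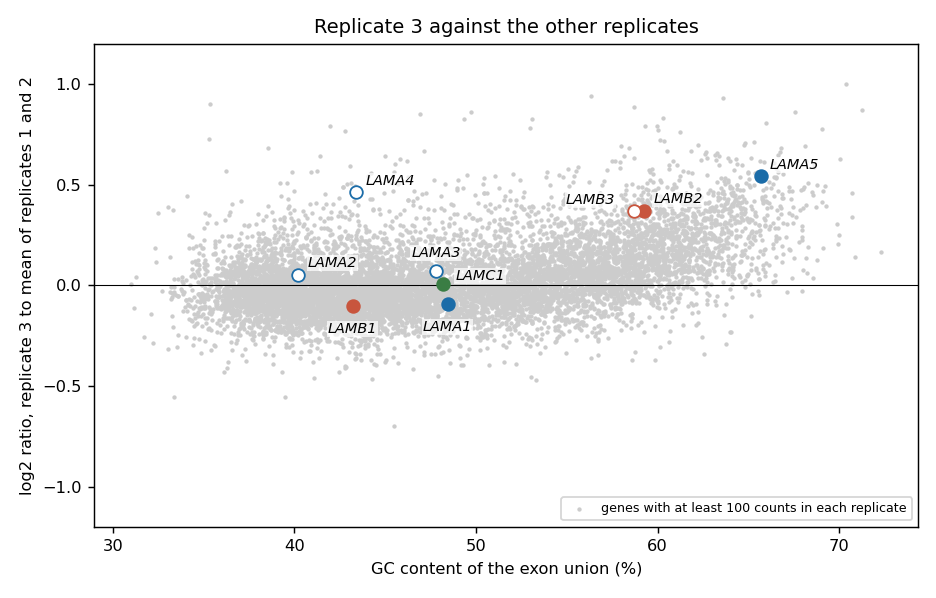
Log2 ratio of replicate 3 to the mean of replicates 1 and 2 against the GC content of the exons in percent, for the 9946 genes that no replicate counted fewer than 100 times (grey, 3 of them outside the axis) and for the laminin chain genes (filled where they meet that limit, open where they do not). LAMA5 and LAMB2 have the highest GC content of the filled points and ratios of 0.54 and 0.37, and LAMA1, LAMB1 and LAMC1 lie between -0.10 and 0.01.

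Little of the exon length of the members is shared with other genes. LAMA1 shares the most, as 1641 bp, or 10.3% of its exons, lie over the antisense gene ENSG00000265069, which had 93, 102 and 77 reads. LAMB1 shares 300 bp with DLD, and LAMA5 shares 244 bp with ADRM1, both on the opposite strand, and each such overlap is under 2% of the exons of the laminin gene. The use of strand in the counting is not given in the sources used here, so reads from such stretches cannot be assigned to 1 strand. The pseudogene LAMB2P1, which lies near LAMB2 on chromosome 3, had 3, 2 and 2 reads, against 481, 611 and 543 for LAMB2.

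RefSeq promoter sequences (GRCh38.p14) were held for 8 of the 9 members, LAMA1 being the one without an entry. The 250 bases before the annotated start were examined for CG dinucleotides, which are dense at many promoters that are active in most cells. LAMC1 and LAMA5 each had 32 CG dinucleotides and LAMB1 had 28, where the median of 35116 such sequences was 11, with quartiles of 3 and 23. LAMB2 had 12, LAMA2 and LAMA3 each 9, and LAMA4 had 5. The 3 entries of LAMB3, of which the first and the second overlap, had 8, 10 and 3. The motif GGGCGG, searched on both strands, occurred 5 times in LAMA5, 4 times in LAMB1 and 3 times in LAMC1, once in LAMB2, LAMA3 and each entry of LAMB3, and was not in the windows of LAMA2 and LAMA4. It was in 42.6% of all entries. TATAAA, searched in the same way, was in none of the 10 windows and in 10.7% of all entries. The windows of LAMA3, LAMA4 and the third entry of LAMB3 lie wholly inside the annotated gene. Those of LAMB1, LAMB2 and the second entry of LAMB3 lie partly inside it. Members are few and were compared by eye, with no test. The windows of LAMC1 and LAMA5, whose means were above 20 TPM, and of LAMA2 and LAMB3 (first entry), which are near 1 TPM or below, are shown from 5′ to 3′ on the strand of the gene, with each CG in capitals. They lie at chr1:183023170-183023419 (plus strand), chr20:62367313-62367562 (minus strand), chr6:128882888-128883137 (plus strand) and chr1:209652426-209652675 (minus strand).
LAMC1: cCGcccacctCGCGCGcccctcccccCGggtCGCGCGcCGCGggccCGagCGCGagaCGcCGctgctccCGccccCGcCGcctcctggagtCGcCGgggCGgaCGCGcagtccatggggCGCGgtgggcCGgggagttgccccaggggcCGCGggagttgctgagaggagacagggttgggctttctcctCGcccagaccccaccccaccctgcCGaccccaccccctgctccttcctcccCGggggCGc
LAMA5: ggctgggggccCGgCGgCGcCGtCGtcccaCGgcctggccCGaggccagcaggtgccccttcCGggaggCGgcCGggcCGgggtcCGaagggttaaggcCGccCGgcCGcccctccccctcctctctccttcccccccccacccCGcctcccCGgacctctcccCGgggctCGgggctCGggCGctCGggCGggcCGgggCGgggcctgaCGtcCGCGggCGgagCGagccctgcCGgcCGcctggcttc
LAMA2: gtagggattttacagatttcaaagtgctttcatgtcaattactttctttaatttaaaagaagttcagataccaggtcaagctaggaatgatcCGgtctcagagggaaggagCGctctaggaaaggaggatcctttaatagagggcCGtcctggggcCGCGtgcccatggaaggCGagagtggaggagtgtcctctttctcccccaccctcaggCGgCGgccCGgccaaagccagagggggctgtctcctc
LAMB3: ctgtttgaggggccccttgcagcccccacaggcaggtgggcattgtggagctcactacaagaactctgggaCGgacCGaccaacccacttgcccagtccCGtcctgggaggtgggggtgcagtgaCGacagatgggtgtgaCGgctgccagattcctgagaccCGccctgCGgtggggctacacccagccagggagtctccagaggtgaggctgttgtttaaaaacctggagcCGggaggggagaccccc

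LAMC3 and LAMB4, laminin genes outside the list, were also measured. LAMC3, a further gamma chain gene, had 16.3, 14.6 and 16.3 TPM, from 380, 396 and 323 reads. LAMC1 was 8.84, 10.01 and 8.80 times as high, a mean of 9.22 ± 0.689 (SD, n = 3), and their ranges did not overlap. LAMB4, a further beta chain gene, had 5, 3 and 3 reads, a mean of 0.202 TPM.

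The median level of the genes of receptors to which laminins bind was 61.1 TPM with the union of exons as length. Of 13 receptor genes, 7 were in the high, 4 in the medium and 2 in the low class. SDC4, a heparan sulfate proteoglycan, had 191 ± 6.18 TPM, DAG1, which encodes dystroglycan, 147.9 ± 4.64 TPM, and ITGB1, the beta subunit of most laminin-binding integrins, 112.9 ± 8.30 TPM (SD, n = 3 each). With canonical lengths ITGB1 had 266 TPM and SDC4 had 116 TPM. Among its alpha partners, ITGA6 had 83.4 ± 2.73 TPM, ITGA7 16.3 ± 2.65 TPM and ITGA3 13.4 ± 1.39 TPM (SD, n = 3 each). ITGB4, the integrin subunit that binds the epidermal laminin, had 2.36 ± 0.620 TPM (SD, n = 3). Of 13 enzymes that build the sugar chain by which dystroglycan holds laminin, 2 were in the high, 9 in the medium and 2 in the low class, led by LARGE2 at 50.1 TPM and B4GAT1 at 43.1 TPM. With canonical lengths B4GAT1 had 26.0 TPM.

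Of 19 genes for partners of laminins in the basement membrane, 9 were in the high, 4 in the medium and 6 in the low class. SPARC, a collagen-binding protein, had 219 ± 16.0 TPM, PXDN, which crosslinks collagen IV, 117 ± 1.86 TPM, and COL18A1 94.3 ± 13.9 TPM (SD, n = 3 each). The linker NID1, which joins laminin to collagen IV through the gamma chain of LAMC1, had 28.4, 28.5 and 26.4 TPM, and its paralog NID2 had 6.61, 6.86 and 7.03 TPM. COL4A1 and COL4A2, which encode the common chains of collagen IV, had 57.1 ± 3.04 and 42.0 ± 3.46 TPM (SD, n = 3 each). With canonical lengths COL4A2 had 75.9 TPM and NID1 16.8 TPM. COL4A3 and COL4A4, of the mature kidney and lung, were at 0.264 and 0.423 TPM.

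**Figure D5:**
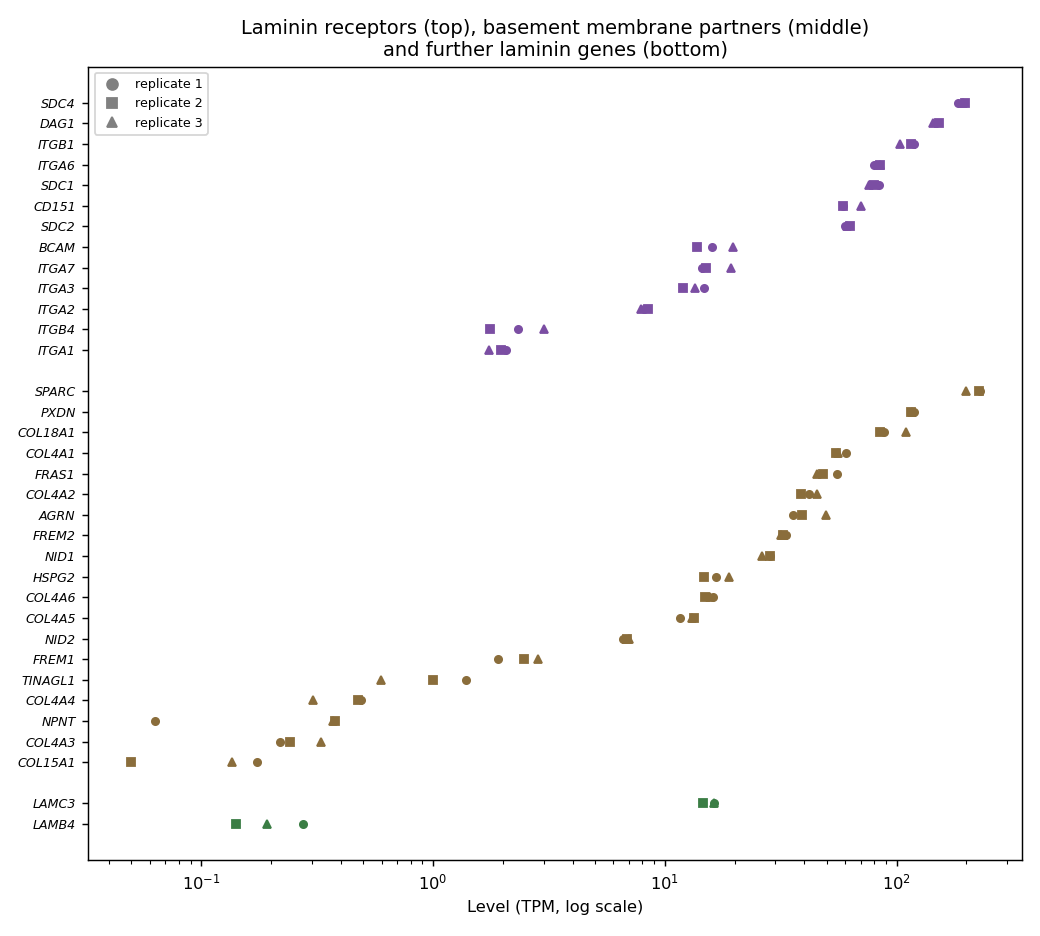
Level in TPM, on a log axis, of genes for laminin receptors (purple), basement membrane partners (brown) and LAMC3 and LAMB4 (green), with 1 point per replicate. SDC4, DAG1 and ITGB1 lie above 100 TPM in every replicate, as do SPARC and PXDN, and LAMC3 lies between 14.6 and 16.3 TPM.

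Markers of cell types in which single laminin chains are prominent were low, with exceptions. Of 4 markers of stratified epithelium, KRT1, KRT5 and KRT14 had no read in any replicate and TP63 had 5, 4 and 4 reads. Summed levels were 10.4 to 15.0 TPM for 5 endoderm markers, led by FOXA2 at 7.54 TPM (4.87 TPM with the canonical length), and 3.28 to 5.04 TPM for 4 markers of muscle and Schwann cells, with no read on MYOD1. The 4 endothelial markers summed to 76.3 to 79.8 TPM, of which KDR, a receptor that pluripotent cells can also express, had 76.5 TPM (50.2 TPM with the canonical length), while PECAM1, CDH5 and TEK were below 1 TPM. The 4 fibroblast markers summed to 38.2 to 43.8 TPM, nearly all from COL1A2 and COL1A1, with LUM and DCN below 0.2 TPM. Whether other cells contributed to the laminin transcripts was not tested.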

How the data were processed

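RNA of 3 replicates of untreated H9 cells was depleted of ribosomal RNA and sequenced. The authors trimmed reads with Trim Galore (version 0.4.4), aligned them to GRCh38 with TopHat2 (version 2.1.1) and deposited unnormalized whole-number counts of reads per gene, which are used here. The tool and annotation that made the counts are not given in the sources available here. Identifiers were joined to GENCODE release 44 (98.1% matched), and TPM was computed from exon unions. The study's own abundances came from Cufflinks (version 2.2.1) and were not used here. Errors are SDs over 3 replicates, and with 1 condition no test was made. The counting CV is that of Poisson counts at the library totals. edgeR (version 4.0.16) gave TMM factors and gene-wise biological coefficients of variation over the 15997 genes kept by filterByExpr, and DESeq2 (version 1.42.0) served as alternative, in R 4.3.3. Log2 ratios used a prior count of 0.5. The TPM and dispersion steps were tested on simulated counts. Tables and plots were made with matplotlib 3.10.9, scipy 1.17.1, pandas 2.3.3 and numpy 2.4.6 under Python 3.11.15. Genes named are the members, other laminin genes, up to 3 with the highest mean and 3 without reads of each list, and neighbors in level. Some results that this rule calls for are not reported here. Others (ITGA6, ITGA7, ITGA3, ITGB4, NID1, NID2, the COL4A genes, VTN, CDH5, DCN, LAMB2P1 and the overlapping genes) were named after their values were seen. Members and lists were chosen with earlier results of these data known. Alternatives were another gene length, unit, normalization, filter or class rule, the median, a GC correction and leaving out each replicate.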

Additional observations from a re-analysis of the deposited data

How the results depend on the processing

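The level of a chain class depended most on the gene length. With the longest transcript, the summed TPM was 83.9 for alpha, 108.4 for beta and 116.0 for gamma chains, against 76.0, 69.5 and 144.7, and with the canonical transcript it was 70.9, 99.3 and 93.0. Alpha to gamma, 0.525, became 0.724 and 0.762, and beta to gamma, 0.480, became 0.934 and 1.07. The share of LAMB1 in the beta chains, 55.9%, became 74.3% and 77.5%, and that of LAMA5 in the alpha chains, 28.9%, became 23.4% with the canonical transcript. CPM, which is not divided by length, summed to 297.8, 235.6 and 309.1, gave ratios of 0.963 and 0.762, and gave LAMB1 77.3%. These follow from the annotated lengths, and which length fits these cells was not tested. Leaving mitochondrial genes out of the total raised all class sums, because the total is smaller. They became 79.2 (alpha), 72.4 (beta) and 150.8 TPM (gamma), and only the alpha sum moved by less than its SD. With TMM or DESeq2 factors no class sum moved by more than its SD, and with the median no class sum, share or ratio did.

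Without each replicate in turn, the sums were 74.6 to 77.9 TPM (alpha), 68.2 to 70.7 TPM (beta) and 143.8 to 145.5 TPM (gamma), and the ratios 0.513 to 0.542 and 0.469 to 0.488. LAMA1 held 65.5% to 70.3%, LAMA5 25.9% to 30.4% and LAMB1 53.9% to 58.6%. The number of members in the high class stayed at 4 without any 1 replicate, and was 3 to 5 under the other alternatives.

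Of 9 member levels, the canonical length moved 6 by more than their SD (2 higher and 4 lower). The biological coefficient of variation of LAMA5, 0.104, was 0.208 with DESeq2 dispersions and 0.0801 with no filter, and that of LAMB2, 0.0796, was 0.0925 and 0.0678. Among the 12995 protein-coding genes kept by filterByExpr, the percentiles of the 8 members kept were all lower, and LAMA1 exceeded 74.2%. The filter takes out genes with few reads, so lower percentiles follow from it and are not particular to the members. With under 100 reads in a replicate, LAMA2, LAMA3, LAMA4 and LAMB3 are limited by depth. No paired analysis was possible because only 1 condition was sampled.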

Other observations

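Netrins share the laminin fold at their amino end, and their genes were mostly low in these cells. Of 6 netrin genes, 1 was in the medium class and 5 in the low class. NTN1, which encodes a guidance cue that also acts in pluripotent cells, had 9.34 ± 2.78 TPM (SD, n = 3), from 110, 180 and 173 reads, and 6.04 TPM with the canonical length. NTN4, whose product binds the gamma chain of laminins, had 1.35 TPM and NTNG1 0.937 TPM.

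Of 6 genes for other matrix proteins, 1 was in the high, 3 in the medium and 2 in the low class. FN1, which encodes fibronectin, had 51.6 ± 1.43 TPM (SD, n = 3), close to LAMA1 when the union of exons was the length. With canonical lengths FN1 had 63.9 TPM and LAMA1 50.6 TPM. VTN, which encodes vitronectin, the protein that coated the plates, had 6, 7 and 6 reads, a mean of 1.28 TPM. COL1A2 had 25.6 TPM and COL1A1 14.6 TPM.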
